A study of Homo sapiens with 4 samples.

Results

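The response of HCT-116 dicer- cells to miR-124 given as a duplex, with its guide strand whole, was described from 3 of the 4 arrays of the series. These were 1 array of cells given the duplex labelled miR-124 G/P at 10 nM and 2 arrays of cells taken through a mock transfection, all at 24 h. HCT-116 is a human colon carcinoma line, and the cells of every array carry the dicer- alteration, so no array of cells with unaltered Dicer was used here. The study asked whether a miR-124 guide cut into segments, on the fourth array, keeps the activity of the intact guide, and the intact duplex is the reference for that question. No array of cells given an unrelated duplex was used here, so changes due to the miR-124 sequence and those due to receiving any duplex cannot be told apart. The comparison took in every gene with a probe set assigned to it alone, 19798 genes from 35184 of 52377 probe sets, and the brightest probe set stood for each gene.

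A microRNA is loaded as a guide strand into an Argonaute protein, pairs through its 5′ end (the seed) with sites mostly in the 3′ untranslated region of messenger RNAs, and lowers their stability and translation. Dicer cuts microRNA precursors into duplexes, so a ready-made duplex enters the pathway after that step. miR-124 is abundant in neurons, where it is known for repressing genes of non-neuronal cells such as the splicing repressor gene PTBP1.

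Levels are log2 intensities of the array, a change is the intact array minus the mean of the mock arrays, and a change was called at an adjusted p under 0.05 in limma, with Benjamini-Hochberg adjustment over all 19798 genes. The spread came from the mock pair alone (1 residual degree of freedom), and the lone intact array was assumed to vary like it. Whether the mock arrays stand for separate cultures is not stated, so each p-value reflects the spread of these particular arrays, which may be technical. The 576 probe sets named for viruses gave a measure of signal without a matching message, and the highest of their 95th percentiles over the arrays, a log2 intensity of 5.67, was taken as the array background. A level at or under it has no order, and folds from or to such a level are given as "at least", set against the background. DICER1, the gene altered in these cells, stood at 11.21 and 11.28 on the mock arrays and at 11.13 on the intact array, a change of -0.11 (adjusted p = 0.56). Where its probe sets lie relative to the alteration is not known, so these levels do not check it. The epithelial marker EPCAM stood at 13.01 and 13.06 on the mock arrays and at 13.05 with the duplex, and of 11 marker genes of blood, endothelial and neural cells 0 were above background in mock cells. Of 9 measured markers of epithelial and colon cells 5 were above background there, while VIL1, CDX1, LGALS4 and CEACAM5 were not, and 3 of 5 fibroblast and muscle markers were too. CDX2, a transcription factor of the intestinal epithelium, was above background on all 3 arrays (7.67, 7.71 and 8.38).

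With the intact duplex 4937 genes passed the threshold, 24.9% of those tested, of which 2064 were lower (10.4%) and 2873 higher (14.5%). The median change of all genes was 0.02, and the middle of the distribution, from the 5th to the 95th percentile, reached up to 1.16. By size alone, 875 genes (4.42%) were at least 2-fold below both mock arrays and 1171 (5.91%) at least 2-fold above both, against 47 genes (0.237%) that were that far apart between the mock arrays. At 4-fold these counts were 165 and 141, and 1 gene lay that far apart in each direction between the mock arrays. Counting only genes with mock levels above background, 165 were lower and 74 higher at 4-fold, and 22 were lower and 10 higher at 8-fold.

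Lower calls were concentrated among abundant messages and higher calls among weaker ones. In such bulk RNA a lower level in every cell and fewer cells with the message cannot be told apart. The median mock level was 9.74 for genes called lower and 7.66 for genes called higher. Of the 2318 genes with a mock level above 11, 20.7% were lower and 4.31% higher, and of the 3150 genes between 7 and 9, 13.5% were lower and 30.1% higher. Among the 8543 genes at or under background in mock cells 2.67% were lower and 7.53% higher. Counts of calls in the lists below are to be read beside these shares and those over all genes. A total of 337 genes called higher went from a mean mock level at or under background to a level above it with the duplex, and 111 genes called lower went the other way. Of the 7942 genes that were above background on no array, 529 were called (6.66%), and the sizes of those changes cannot be read.

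**Figure D1:**
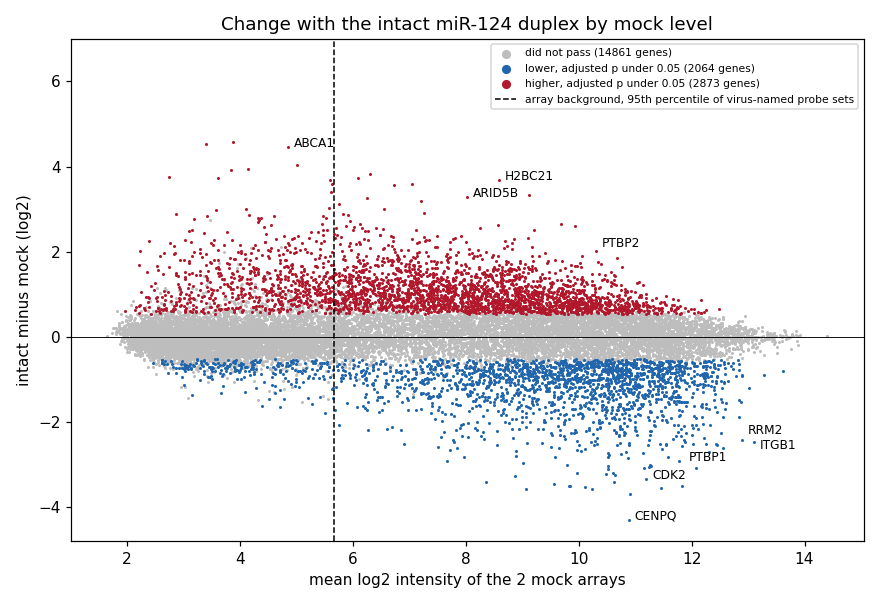
Change with the intact duplex (intact minus mean of mock, log2; vertical axis) against the mean log2 intensity of the 2 mock arrays (horizontal axis), 1 point per gene, with the 2064 genes called lower in blue, the 2873 called higher in red and the others in grey. The dashed line is the array background at 5.67, and the widest falls lie to the right of it, with CENPQ at -4.31, while several of the widest rises, ABCA1 among them, start to its left.

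**Figure D2:**
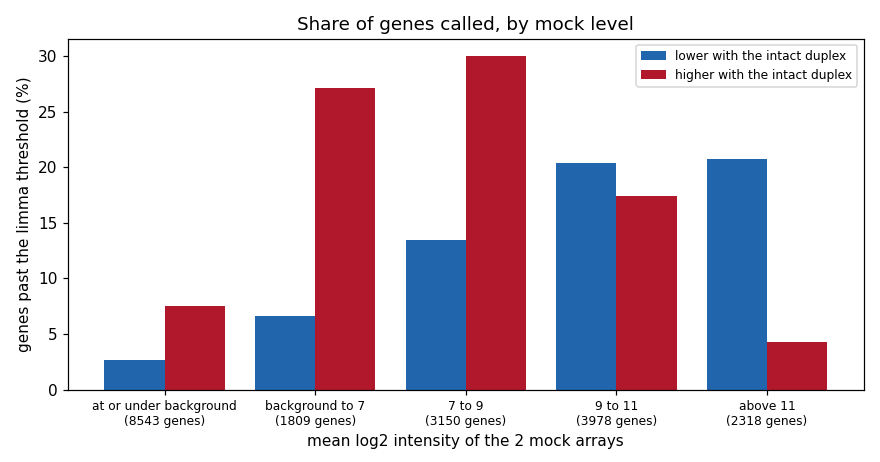
Share of genes (percent) called lower (blue bars) and higher (red bars) with the intact duplex in 5 bins of mean mock log2 intensity, with the number of genes in each bin below its name. The higher share reaches 30.1% in the bin from 7 to 9 and is 4.31% above 11, where the lower share is 20.7%.

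Among the brightest 20% of genes in mock cells (3960 genes with a mock mean above 10.18), 870 were lower and 308 higher. CENPQ, which encodes a subunit of the inner kinetochore, stood at 10.85 and 10.92 on the mock arrays and at 6.57 with the duplex, a 19.8-fold difference (adjusted p = 0.00822, the smallest value of the fit). The intact array lay far below both mock arrays, which differed little from each other. ADI1, an enzyme of the methionine salvage pathway, went from 11.87 and 11.79 to 8.33, and SERINC2, of a family of membrane proteins that take part in serine lipid synthesis, from 10.57 and 10.48 to 7.41. ANXA5, the phospholipid-binding annexin A5, went from 12.05 and 12.10 to 8.99, an 8.51-fold difference. The 12 largest falls of these bright genes (ERVMER34-1, -3.21, and COL12A1, -3.25, among them) lay between -4.31 and -3.09. The 12 largest rises in the same set were smaller, from 1.36 to 2.01.

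PTBP2, the neuronal relative of PTBP1, led the rises of bright genes, from 10.30 and 10.31 to 12.31, a 4.03-fold difference. GDF15, a secreted stress-response factor, went from 10.76 and 10.60 to 12.54, and ZFHX3, a large homeobox transcription factor, from 10.32 and 10.37 to 12.09. FBXW7, the ubiquitin ligase subunit that marks cyclin E and MYC for destruction, went from 10.27 and 10.45 to 11.84. All 4 intact values lay above both mock values by more than the mock arrays differed. MAP3K20 rose by 1.36 on its brightest probe set, but 3 of its 6 probe sets went the other way, down to -1.98.

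**Figure D3:**
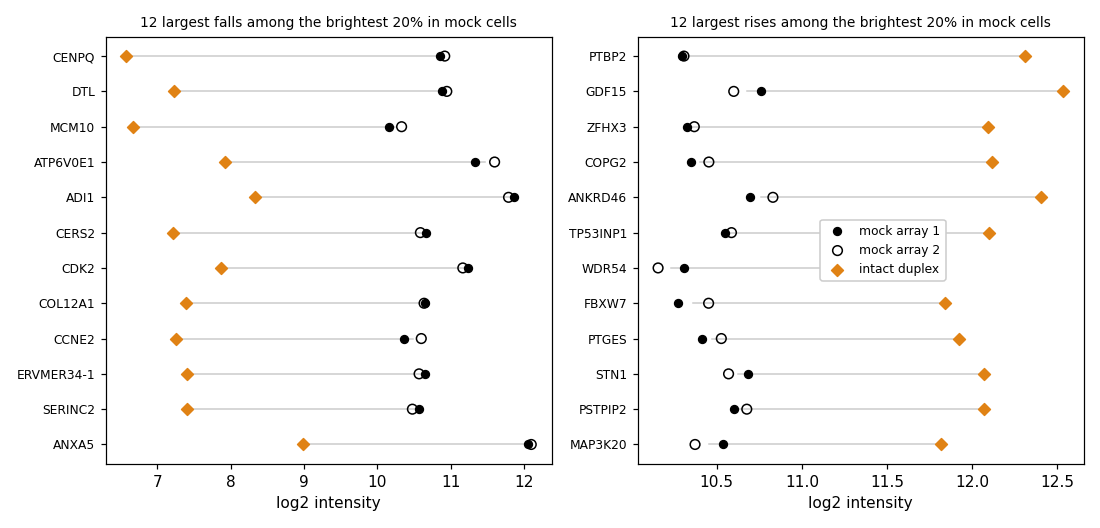
Log2 intensity (horizontal axis) on mock array 1 (filled circles), mock array 2 (open circles) and the intact array (diamonds) for the 12 largest falls (left) and 12 largest rises (right) past the threshold among the brightest 20% of genes in mock cells. The axes of the panels differ. The changes run from -4.31 to -3.09 on the left and from 1.36 to 2.01 on the right.

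Genes with several probe sets gave a check of the same array by other probes. Of the 1151 lower genes with at least 2 probe sets, 79.7% had all of them below mock, and of the 1514 such higher genes 78.1% had all above, against 55.9% of uncalled genes with all probe sets going 1 way. PAPSS2, which makes the sulfate donor of sulfation reactions, had every probe set at least 2-fold down and stood at 9.08 and 9.05 in mock cells and 5.48 with the duplex, at least 10.5-fold lower. MYCBP, encoding a MYC-binding protein (11.29 and 11.25 to 8.26), and GEMIN5, encoding an RNA-binding protein of the SMN complex (11.18 and 11.09 to 8.39), fell (-3.01 and -2.74). POLR3G, a subunit of RNA polymerase III, fell by 2.56, from 11.83 on both mock arrays to 9.27. In the other direction, all probe sets of ARID5B, a chromatin-binding cofactor gene, lay at least 2-fold up. Its level went from 8.08 and 7.97 to 11.31. INKA2, a gene of a PAK4 kinase inhibitor, went from 6.21 and 6.04 to 8.77. These genes were named for that agreement among their probe sets. Of 183 called genes named by rule that have several probe sets, 154 had all of them on the same side of mock. Those with a probe set going the other way included CNOT9, KCNC4, LAMC1, MTHFD1, NOTCH3, PLOD2, PPARA, RBPJ and TGFBR3.

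Genes known from the literature as miR-124 targets lay below mock for the most part. Among 62 measured members 49 fell (79.0%, against 10.4% of all genes), 1 rose and 12 did not pass, with a median of -1.40 against 0.02 for all genes. A total of 60 members lay below mock and 37 lay at least 2-fold below both mock arrays. The list was written with earlier results of these arrays known, so its direction is not independent evidence. Without the 19 members whose values had been seen, 32 of 43 fell, 0 rose and the median was -1.03. These 43 were also listed with earlier results known, so they are not independent evidence either. Between the mock arrays the median difference of the list was 0.04.

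MAGT1, a magnesium transporter and oligosaccharyltransferase subunit, went from 12.47 and 12.64 to 9.93, with all of its probe sets at least 2-fold down. LITAF, a membrane adaptor of the endosome, went from 11.21 and 11.26 to 8.68. CTNND1, which encodes the cadherin-binding p120 catenin, fell by 2.52, and the chaperone gene DNAJC1 (-2.39) and the ETS factor gene ELK3 (-2.19) fell too. These last 3 genes were chosen after their values were seen. Members that did not pass included ROCK1, a kinase gene of actin contraction, at -1.34 (adjusted p = 0.0572), where the mock arrays disagreed (6.72 and 7.40, against 5.72), JAG1 at -0.19, SOX9 at -0.18 and ACTL6A at -0.02. The group therefore held members more than 8-fold down beside members at the level of mock.

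The regulators of the step from G1 to S phase moved in both directions. Of 34 measured genes 14 fell (41.2%, against 10.4% of all genes) and 4 rose (11.8%, against 14.5%), with a median of -0.41. CDK2, the kinase of S phase entry, went from 11.23 and 11.16 to 7.86, a fall of more than 8-fold, and CCNE2, its cyclin, from 10.37 and 10.60 to 7.26. CDC25A, the phosphatase that activates CDK2, went from 10.80 and 10.89 to 8.13. CDK4, the kinase partner of the D cyclins, went from 11.75 and 11.81 to 8.86. The kinases, their cyclin E partner and their activator thus all lay several-fold under both mock arrays.

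The D cyclins themselves did not pass. CCND1 stood at 13.20 and 13.13 in mock cells and at 12.91 with the duplex (-0.25, adjusted p = 0.227), and CCND3 at -0.08. Of 6 measured genes of inhibitors of these kinases, 4 rose and 0 fell. CDKN2D, which encodes the CDK4 and CDK6 inhibitor p19, went from 9.54 and 9.35 to 11.18, and CDKN1C, which encodes p57, from 8.70 and 8.86 to 10.11. CDKN1B (0.71) and CDKN2B (0.86) rose as well, while CDKN1A stood at -0.12 (adjusted p = 0.513). Of the 8 E2F factors 4 fell and 0 rose. E2F1, an activator of S phase genes, went from 8.28 and 8.33 to 6.07, and E2F8, a repressing member, from 8.02 and 8.06 to 5.67, at the array background, which makes it at least 5.15-fold lower. The D cyclin, inhibitor and E2F genes named here, other than E2F8, CCND1 included, were chosen after their values were seen.

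The machinery that copies DNA had the largest share of lower members among the cell cycle lists. Of 49 measured DNA replication genes 36 fell (73.5%, against 10.4% of all genes), 0 rose and 13 did not pass, with a median of -0.94. DTL, the substrate receptor of the ubiquitin ligase that removes the licensing factor CDT1, stood at 10.89 and 10.95 on the mock arrays and at 7.23 with the duplex, a 12.9-fold difference. MCM10, which helps to start the replicative helicase, went from 10.16 and 10.33 to 6.67. GINS2, of the GINS complex that binds the helicase, went from 11.61 and 11.54 to 8.74. In each case the intact array lay far outside the small difference of the mock arrays.

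By complex, 3 of 3 measured GINS genes fell (median -2.31), as did 5 of 5 RFC genes of the clamp loader (-0.65) and 5 of 6 MCM2 to MCM7 helicase genes (-0.73). Of 9 genes of replicative polymerases and primase 6 fell (-1.08), and of the 6 origin recognition genes 3 fell (-0.58). ORC6 went from 11.25 and 11.26 to 9.04 and MCM2 from 11.06 and 10.94 to 8.99, whereas ORC3 (0.23) and ORC4 (0.27) did not pass. PCNA, the sliding clamp that the RFC complex loads, stood at 12.32 and 12.48 in mock cells and at 12.53 with the duplex (0.13, adjusted p = 0.544). The ligase gene LIG1 (0.36) and the polymerase subunit gene POLD2 (0.09) did not pass either. Among the genes in this paragraph only ORC6 came from the rule for named genes, and the others were chosen after their values were seen.

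Promoter sequences from RefSeq (GRCh38.p14), each a window that lies mostly upstream of the gene's start, were found for 15403 of the 19798 genes. They are shown for 3 replication genes that fell and that carry letters bound by E2F factors, in capitals. The letters searched were TTTCCCGC, TTTCGCGC, TTTGCCGC and TTTGGCGC on both strands. DTL lies on the plus strand at chr1:212035498-212035797 and has 1 match, GINS2 on the minus strand at chr16:85688905-85689204 with 1 match on the opposite strand of its gene, and MCM2 on the plus strand at chr3:127598161-127598460 with 2 matches that overlap.
DTL: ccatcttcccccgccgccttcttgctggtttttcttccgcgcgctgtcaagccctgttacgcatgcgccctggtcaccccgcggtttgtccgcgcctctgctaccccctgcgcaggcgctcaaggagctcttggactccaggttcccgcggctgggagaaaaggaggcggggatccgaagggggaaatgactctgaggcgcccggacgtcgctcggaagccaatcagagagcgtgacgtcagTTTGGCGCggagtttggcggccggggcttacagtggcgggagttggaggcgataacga
GINS2: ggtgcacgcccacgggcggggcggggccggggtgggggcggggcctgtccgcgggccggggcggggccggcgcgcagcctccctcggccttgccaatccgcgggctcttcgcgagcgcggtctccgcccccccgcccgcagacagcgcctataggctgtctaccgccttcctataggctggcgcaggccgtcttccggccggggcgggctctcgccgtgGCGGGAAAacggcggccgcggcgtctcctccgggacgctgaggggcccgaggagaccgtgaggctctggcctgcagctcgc
MCM2: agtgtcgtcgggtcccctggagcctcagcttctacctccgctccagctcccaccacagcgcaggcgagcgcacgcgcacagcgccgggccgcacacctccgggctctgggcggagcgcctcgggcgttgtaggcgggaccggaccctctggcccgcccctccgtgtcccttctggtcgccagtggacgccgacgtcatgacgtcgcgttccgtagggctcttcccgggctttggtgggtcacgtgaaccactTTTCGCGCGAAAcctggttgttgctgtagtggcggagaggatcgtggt

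These letters were present in 3.33% of 27305 promoters of that length and in 20 of the 43 DNA replication genes with a promoter (46.5%). The 20 genes with a match had a median change of -1.36 and the 23 without one -0.65, and 15 fell in each. Over all genes above background with a promoter, 6.71% of those called lower, 4.27% of those called higher and 5.53% of those not called had a match. Genes of mitosis carried other letters. The CHR element TTTGAA, through which many mitotic genes are held down until late in the cycle, was present in 31 of 44 mitosis promoters (70.5%), in 1 of 43 replication promoters (2.33%) and in 15.4% of all promoters. The 5-letter CCAAT box was in 77.3% of the mitosis promoters and 55.8% of the replication promoters, against 35.7% of all. A match describes the sequence only and does not show binding.

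Nucleotide supply and recombination repair, which serve the replication fork, were lower in part. Of 25 nucleotide supply genes 9 fell (36.0%, against 10.4% of all genes) and 0 rose (median -0.38). RRM2, the regulated subunit of ribonucleotide reductase, fell by 2.44 from a mock mean of 12.89, and MTHFD1, of the folate cycle that feeds purine and thymidylate synthesis, went from 11.66 and 11.70 to 9.60. PPAT, the first committed enzyme of purine synthesis, and CAD, which starts pyrimidine synthesis, fell too (-1.41 and -1.38). Of 34 recombination repair genes 18 fell (52.9%) and 0 rose (median -0.59). XRCC2, of homologous recombination, went from 7.70 and 7.65 to 4.75, which is under background and makes it at least 4.01-fold lower. The other probe set of XRCC2 stood at -0.02. The helicase gene BLM went from 10.81 and 10.77 to 8.56, and EXO1, a nuclease of DNA end resection, fell by 2.03.

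Genes of the kinetochore and of mitosis were lower in part. Of 36 centromere and kinetochore genes 18 fell and 0 rose (median -0.64), and of 50 mitosis genes 15 fell and 1 rose (median -0.41). Over all genes 10.4% were lower. Median mock levels were 10.5 for the centromere and kinetochore list and 11.2 for the mitosis list. Of all genes with a mock level between 9 and 11, 20.4% were lower, and of those above 11, 20.7%. The difference between the lists was not tested. OIP5, which helps to place the centromeric histone, went from 10.24 and 10.21 to 7.76, and SKA1, of the complex that couples kinetochores to microtubules, from 11.79 and 11.71 to 9.68. Of the 19 CENP genes 10 fell, with CENPL at -2.08 and CENPO at -1.50 after CENPQ. Among mitosis genes the spindle kinesin gene KIF15 (-2.21), the checkpoint kinase gene BUB1B (-1.35) and the cyclin A2 gene CCNA2 (-1.22) fell. MKI67, the proliferation marker, went from 11.80 and 11.63 to 10.44 (-1.27).

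Histone genes held some of the widest rises of all. Of 57 measured core and linker histone genes 12 rose (21.1%, against 14.5% of all genes) and 4 fell (7.02%, against 10.4%). Of the 57, 28 were above background on at least 1 array. All 12 that rose were of the replication-dependent kind, whose messages usually end in a stem-loop and not in a poly(A) tail. H2BC21 went from 8.65 and 8.51 to 12.27, H2BC5 from 9.01 and 9.23 to 12.45 and H2AC6 from 9.90 and 9.96 to 12.53. H2BC11 stood at 5.21 and 4.82, under background, in mock cells and at 9.05 with the duplex, at least 10.4-fold higher. H2AC11 (3.60) and H3C10 (3.18) rose too.

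Other histone genes of the same kind moved the opposite way. H2AC20 went from 10.49 and 10.21 to 8.33 while H4C3 stood at 9.35 and 8.64 on the mock arrays and fell by 2.00, both chosen after their values were seen, and the mock arrays differed from each other in H4C3. The median of the list was 0.13, so that most members lay near mock, many of them under background. Of 8 measured replication-independent histone genes 1 fell and 0 rose. Histone genes have near-identical copies, and which copies a probe set measures cannot be settled from these values.

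Chromatin regulators were split between relatives. UHRF1, which guides maintenance DNA methylation behind the replication fork, went from 11.90 and 11.83 to 9.44, while DNMT1, the enzyme it recruits, stood at -0.33 and did not pass. EZH2, the Polycomb methyltransferase of dividing cells, went from 10.20 and 10.29 to 9.02, and its relative EZH1 from 7.55 and 7.22 to 8.58. DNMT3A, which sets new methylation, rose by 1.20. Over the list of 23 Polycomb and DNA methylation genes 4 fell and 7 rose, with a median of 0.15.

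Several genes of the BCL2 family that promote cell death were higher, and BCL2 was lower. Of 19 measured members 7 rose (36.8%, against 14.5% of all genes) and 1 fell, with a median of 0.12. BCL2, which holds back apoptosis, went from 7.55 and 7.59 to 5.21, under background, at least 3.72-fold lower. The changes of its 4 probe sets ran from -2.36 to -0.16. BAX, an effector of mitochondrial permeability, went from 10.31 and 10.15 to 11.55. BCL2L11, a BH3-only activator, went from 9.72 and 9.79 to 11.38, and BBC3, another, from 5.90 and 5.88 to 7.53. BMF lay under background in mock cells (3.38 and 3.37) and just above it with the duplex (5.82), so that only a difference of at least 1.10-fold can be stated. The anti-apoptotic BCL2L1 (-0.03) and MCL1 (0.10) did not pass, and were chosen after their values were seen.

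Growth-linked transcription factors were mixed, with MYB, EGR1 and EGR3 lower. Of 31 AP-1, EGR, MYC and MYB genes 11 fell (35.5%, against 10.4% of all genes) and 6 rose (19.4%, against 14.5%), with a median of -0.23. Their median mock level was 10.3, and of all genes with a mock level between 9 and 11, 20.4% were lower and 17.4% higher. MYB, a proto-oncogene of progenitor cells, went from 9.82 and 9.84 to 6.33, and EGR3 from 7.13 and 7.09 to 5.38, under background, at least 2.71-fold lower. EGR1, an immediate early factor, (-1.55), MYC (-1.35) and MYBL2, a factor of the cell cycle (-1.27), fell.

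**Figure D4:**
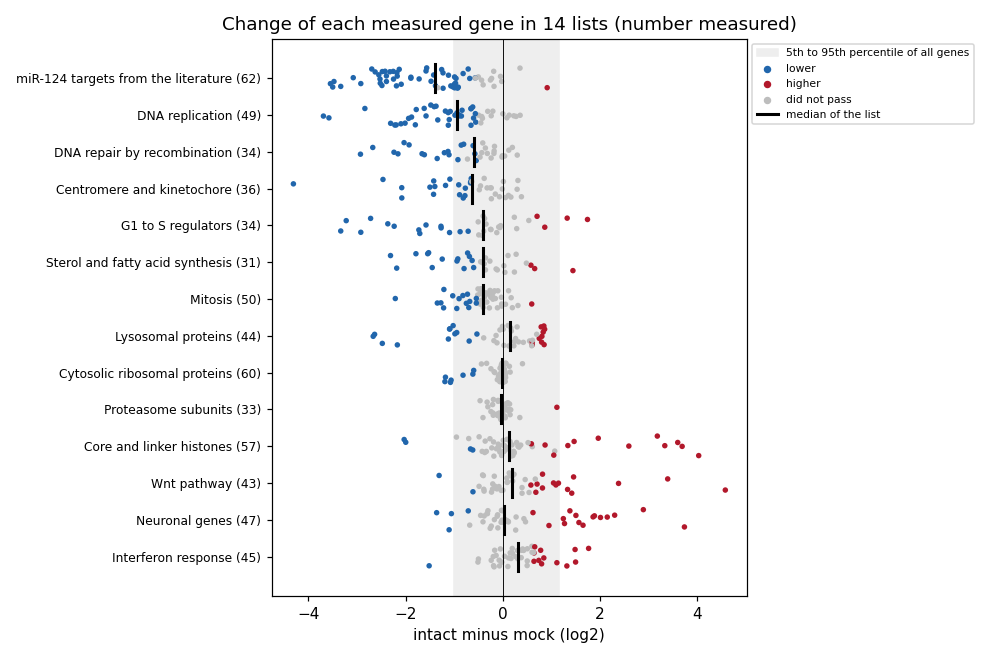
Change with the intact duplex (intact minus mean of mock, log2; horizontal axis) of each measured gene in 14 lists, with the number measured in brackets, genes called lower in blue, higher in red and the others in grey. Black ticks are list medians and the grey band runs from the 5th to the 95th percentile of all 19798 genes. The literature targets have their median at -1.40, and the cytosolic ribosomal and proteasome genes gather near 0.

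In 12 pairs of related genes, the first a gene of most cells or of dividing cells and the second a relative that is more neuronal or specialised, the first fell in 8 pairs and rose in 0, and the second rose in 8 and fell in 0. The first fell and the second rose in 5 pairs. Over all genes 10.4% were lower and 14.5% higher, and the pairs were chosen with earlier results of these arrays known. PTBP1, which represses neuronal exons, went from 12.27 and 12.24 to 9.73 while PTBP2 rose by 2.01. VAMP3, the vesicle SNARE of recycling endosomes, went from 11.18 and 11.12 to 8.07, and its synaptic relative VAMP2 from 9.35 and 9.45 to 10.78. ATP6V0E1, which encodes a part of the membrane sector of the vacuolar proton pump, went from 11.33 and 11.60 to 7.92, an 11.7-fold difference, and ATP6V0E2 from 8.15 and 7.83 to 9.19. The other such pairs were CDK4 (-2.92) with CDK5 (0.90) and PHF10 (-1.18) with DPF3 (0.80), subunits of the BAF chromatin remodeller of progenitors and of later cells.

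In 3 further pairs the second rose while the first did not pass, namely KIF5B (-0.29) with the neuronal kinesin gene KIF5C (1.86), ENO1 (-0.10) with the neuronal enolase gene ENO2 (1.25) and DNMT1 (-0.33) with DNMT3A (1.20). SUCLG2, of the citric acid cycle, went from 9.54 and 9.60 to 6.09 while its counterpart SUCLA2 stood at 0.39, and CERS2, a ceramide synthase for very long chains, from 10.66 and 10.59 to 7.21 beside CERS6 at -0.06. SS18 fell by 0.59, a call lost with the mean of its probe sets (-0.04, adjusted p = 0.854), and SS18L1 stood at 0.33. ACTL6A (-0.02) and ACTL6B (-0.21), the BAF subunits that change places in neurons, both lacked a call.

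**Figure D5:**
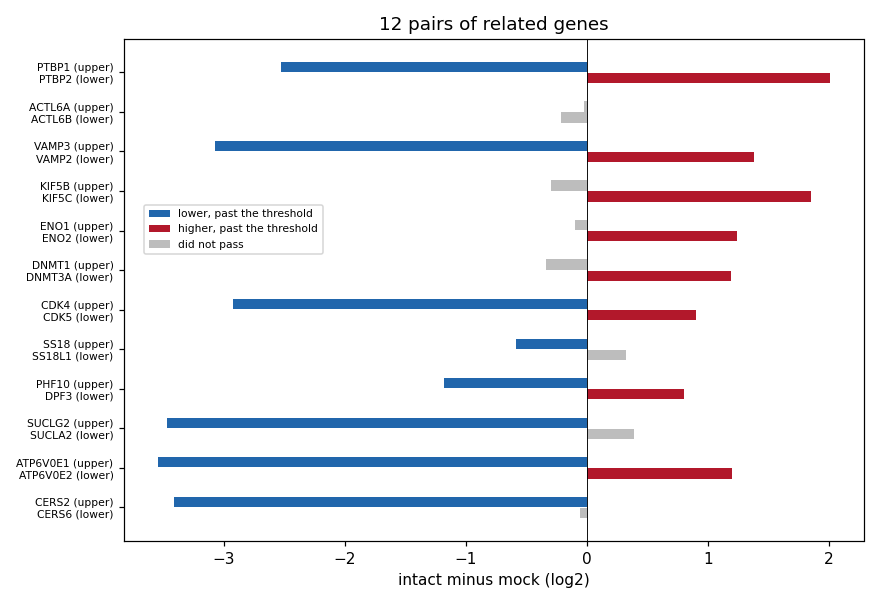
Change with the intact duplex (intact minus mean of mock, log2; horizontal axis) of the 2 genes of each of 12 pairs, the first as the upper bar and the second as the lower bar, blue for called lower, red for called higher and grey for not passed. In 5 pairs the upper bar is blue and the lower bar red, and in the pair ACTL6A with ACTL6B both are grey.

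Single genes of a neuronal list rose, and PTBP2, VAMP2, KIF5C and ENO2 of the pairs above were among them. Of 47 measured genes 15 rose (31.9%, against 14.5% of all genes) and 4 fell (8.51%, against 10.4%). The list's median of 0.03 takes in 24 genes that were under background on all 3 arrays, whose changes cannot be read. SCN2A, a neuronal sodium channel, went from 6.03 and 6.14 to 9.82, and RTN1, a reticulon of neuroendocrine cells, from 5.68 and 5.97 to 8.72. SCG2, a secretory granule protein, went from 7.05 and 7.06 to 9.36 and VAMP1 from 6.46 and 6.80 to 8.78. The synapsin gene SYN1 (-0.02) and the neurofilament gene NEFM (0.03), chosen after their values were seen, did not pass. Markers of neural cells fixed for checking identity, GFAP, RBFOX3 and OLIG2, stayed under background on all 3 arrays.

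REST holds neuronal genes silent in other cells, with help from small phosphatases and the RCOR proteins. REST itself stood at 11.15 and 11.32 in mock cells and at 10.96 with the duplex (-0.27, adjusted p = 0.248). All 3 CTDSP phosphatase genes fell. CTDSPL went from 10.71 on both mock arrays to 8.39, CTDSP1 (-1.39) and CTDSP2 (-1.26) were lower too. SMARCC1, a core BAF subunit, went from 11.80 and 11.81 to 9.48. Over the 39 BAF and REST complex genes 7 fell and 8 rose, with a median of 0.19. Of 46 splicing regulators 12 fell (26.1%, against 10.4% of all genes) and 4 rose (median -0.06). Their median mock level was 11.6, and of all genes with a mock level above 11, 20.7% were lower. After PTBP1 the falls included PTBP3 (-1.59), the epithelial regulator gene ESRP1 (-1.52) and the muscle regulator gene RBM24 (-1.51).

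Cell adhesion and cytoskeleton lists had medians near 0 with strong falls of single members. ITGB1, the beta chain shared by most integrins of the cell surface, went from 13.06 and 13.14 to 10.61, and LAMC1, the gamma chain of most laminins, from 11.81 and 11.82 to 9.64. ITGA5 (1.22), an alpha chain that pairs with it, rose. Of 20 integrin chains 2 fell and 3 rose, and of 9 laminin chains 1 fell and 1 rose. Of 46 actin cytoskeleton and focal adhesion genes 13 fell (28.3%, against 10.4% of all genes) and 1 rose (median -0.07). Their median mock level was 11.8, and of all genes with a mock level above 11, 20.7% were lower and 4.31% higher. The falls included the scaffold gene IQGAP1 (-2.39), the formin gene DIAPH1 (-2.17), the actin-severing gene CFL2 (-2.10) and WASF2 (-1.95), an activator of the Arp2/3 complex. Of 5 Arp2/3 subunit genes 1 fell.

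RHOG, a small GTPase of membrane ruffling, went from 8.91 and 8.86 to 6.19, whereas RHOU, an atypical relative, went from 6.14 and 5.91 to 8.61. COL12A1, a fibril-associated collagen, went from 10.65 and 10.64 to 7.40. The collagen-modifying enzymes PLOD3 (-2.25), P4HA1 (-2.21) and PLOD2 (-1.66) fell, while COL4A5, a basement membrane collagen, rose by 1.36. Of the 37 genes of that list 5 fell and 8 rose (median 0.07). CAV1, the main coat protein of caveolae, went from 12.78 and 12.88 to 10.94, and STOM, a stomatin, from 9.81 and 9.89 to 6.35, with 6 falls and 1 rise among 21 genes (median -0.11).

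Vesicle traffic showed relatives going opposite ways in other families too. RAB6A, a GTPase of the Golgi, went from 10.68 and 10.72 to 8.97, with all 7 of its probe sets below mock, and its brain-rich relative RAB6B from 6.94 and 6.45 to 8.38. RAB38, of lysosome-related organelles, fell by 2.32 and RAB3A, of synaptic vesicles, rose by 1.31. Of 46 Rab genes 10 fell and 8 rose (median -0.00), and of 40 SNARE and fusion genes 8 fell and 11 rose (median 0.17). STX10, a syntaxin of the trans-Golgi network, fell by 1.97.

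In the lysosome list of 44 genes 12 fell and 10 rose (median 0.15), and the falls were wider. SLC17A5, the sialic acid exporter, went from 10.01 and 10.23 to 7.48, CD164, a sialomucin, from 11.78 and 11.98 to 9.40 and LIPA, the acid lipase, from 10.69 and 10.79 to 8.57. ARSB, a sulfatase of glycosaminoglycan breakdown, went from 7.50 and 7.95 to 5.06, under background, at least 4.15-fold lower, and the mock arrays differed there. The changes of its 4 probe sets ran from -2.67 to -0.10. The 10 rises lay between 0.61 and 0.86, with the hydrolase genes CTSD (0.86) and HEXA (0.85), chosen after their values were seen, at the upper end. Of 19 proton pump genes 2 fell and 5 rose (median 0.35). ATP6V1G2, the neuronal form of the pump's G subunit, went from 6.16 and 6.35 to 9.51.

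Genes of the endoplasmic reticulum and of glycan assembly were called lower more often than higher, against 10.4% lower and 14.5% higher of all genes. Median mock levels were 11.2 for the folding, retrieval and stress list and 10.0 for the glycosylation list. Of all genes with a mock level above 11, 20.7% were lower and 4.31% higher, and of those between 9 and 11, 20.4% and 17.4%. Of 48 genes of folding, retrieval and stress 11 fell (22.9%) and 2 rose (median -0.19). KDELR3, a receptor that returns resident proteins, went from 10.05 and 10.16 to 6.56, and SERP1, of the translocation site, from 11.73 and 11.82 to 10.06. Of 49 glycosylation genes 11 fell (22.4%) and 2 rose (median -0.18). RPN1, a subunit of the oligosaccharyltransferase as MAGT1 is, fell to 8.38 from a mock mean of 10.89, and B4GALT1, a galactosyltransferase, from 11.95 and 11.86 to 9.65. ALG13, of the first steps of the glycan, rose by 1.79, although the probe set that is brightest on the mock arrays alone gave -0.62.

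Lipid synthesis genes were lower in part, and several lipid exporter genes were higher. Of 31 sterol and fatty acid synthesis genes 14 fell (45.2%, against 10.4% of all genes) and 3 rose (median -0.41). ELOVL1, which extends very long fatty acids, went from 10.88 and 10.72 to 8.49, and ELOVL5, of polyunsaturated fatty acids, from 11.74 and 11.94 to 10.31. DHCR7 (-2.18) and STARD4 (-1.79) fell on the sterol side. Of 20 ABC lipid transporter and liver X receptor genes 6 rose, where 14.5% of all genes did, and 2 fell (median 0.23). ABCA1, the cholesterol exporter, lay under background in mock cells (4.91 and 4.81) and at 9.32 with the duplex, at least 12.5-fold higher, with all of its probe sets at least 2-fold up.

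ABCG1, a partner exporter, went from 5.82 and 6.10 to 8.67, and 1 of its 4 probe sets went the other way. ABCA12, a skin lipid transporter, rose from under background (3.88 and 4.40) to 8.08, at least 5.29-fold. LPCAT3, a target of the liver X receptors, fell by 1.34, so known targets of these receptors were called in both directions. Among 33 sphingolipid enzymes 8 fell and 7 rose (median -0.06). The ceramidase gene ACER3 fell by 1.91 while ACER2 rose by 2.92, and the ceramide synthase gene CERS4 rose by 1.39 while CERS2 fell by 3.41.

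Few glycolysis and respiratory chain genes were called. These are abundant messages (median mock levels of 11.9 and 11.7), and 20.7% of all genes with a mock level above 11 were lower and 4.31% higher. Of 25 glycolysis genes 0 fell and 2 rose (median 0.06), and of 64 respiratory chain and ATP synthase genes 3 fell and 5 rose (median 0.13). NDUFB5, a subunit of complex I, rose by 2.31 from 7.81 and 7.80. In the citric acid cycle list of 31 genes 5 fell and 4 rose (median 0.15). SDHD (-1.68), the pyruvate carrier gene MPC1 (-1.58) and the malic enzyme gene ME2 (-1.41) fell, and PDK4, a kinase that shuts pyruvate dehydrogenase, went from 6.16 and 6.25 to 8.50.

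SRM, spermidine synthase, fell by 2.54 from 11.61 and 11.46, and with ADI1 it was among 6 falls and 3 rises of 24 polyamine and methionine salvage genes (median -0.01). SLC7A2, a cationic amino acid transporter, went from 8.34 and 8.37 to 4.94, under background, at least 6.42-fold lower, and its relative SLC7A1 from 12.25 and 12.26 to 10.57. Of 27 amino acid transporters 7 fell and 3 rose (median -0.07). The cytosolic ribosomal, mitochondrial ribosomal and proteasome lists had median mock levels of 13.1, 11.5 and 12.3. Of all genes 10.4% were lower, and of those with a mock level above 11, 20.7%. Cytosolic ribosomal protein genes had 7 falls (11.7%) and 0 rises of 60 (median -0.01). Among these falls RPL19 lay under background on all 3 arrays, and RPL23 and RPL26 lost their call with the mean of their probe sets. Mitochondrial ribosomal protein genes had 10 falls (14.1%) and 0 rises of 71 (median -0.11), and proteasome genes 0 falls and 1 rise of 33 (median -0.04). That rise was PSMB9 (1.11), a subunit of the immunoproteasome.

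Wnt pathway genes were called higher in 14 of 43 cases (32.6%, against 14.5% of all genes) and lower in 2 (median 0.19). Their median mock level was 7.44, and of all genes with a mock level between 7 and 9, 30.1% were higher. The share of the list thus lay near that of genes of like level. The ligand gene WNT2B stood just under background on both mock arrays (5.66 and 5.57) and at 9.01 with the duplex, and WNT3 went from 8.81 and 8.91 to 10.28. CXXC4, an inhibitor that binds Dishevelled, rose from 4.39 and 3.36, both under background, to 8.46, at least 6.88-fold. NKD1, a feedback inhibitor, went from 6.62 and 6.33 to 8.86, and SP5, a target gene, rose by 1.46. Ligands, inhibitors and targets were thus among the rises. FZD5 (-1.31) and DKK1 (-0.61), chosen after their values were seen, were the 2 that fell.

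Other signalling lists were mixed. Of 25 Hippo genes 7 fell and 5 rose (median -0.04), with the target CCN2 (-1.83), the coactivator gene YAP1 (-1.09, or -0.44 and no call with the mean of its probe sets) and TEAD4 (-1.01) lower and TEAD3 (1.32) higher. Of 27 Notch genes 4 fell and 3 rose (median 0.09). NOTCH3, a receptor, went from 7.78 and 7.77 to 10.07, while RBPJ, the DNA-binding factor of the pathway, fell by 1.16. Of 34 TGF-beta and BMP genes 7 fell and 8 rose (median 0.23). The coreceptor gene TGFBR3 (-1.73) and SMAD5 (-1.42) were lower and the ligand genes TGFB3 (2.14) and BMP7 (1.38) higher. The other probe set of TGFBR3 stood at 0.09. Of 40 receptor tyrosine kinase and MAP kinase genes 9 fell and 3 rose (median -0.07), with the kinase gene ARAF at -1.75. Of 17 ephrin and Eph genes 5 rose (29.4%, against 14.5% of all genes) and 0 fell (median 0.26). Their median mock level was 7.45, and of all genes with a mock level between 7 and 9, 30.1% were higher. The rises included EPHA4 (1.46) and EPHB3, which went from under background (5.35 and 4.93) to 6.68, at least 2.00-fold higher.

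The ubiquitin ligase gene NEDD4 went from 7.93 on both mock arrays to just under background, at least 4.77-fold lower, and the ligase gene CBL fell by 1.60 while its relative CBLB rose by 1.41. In the NEDD4 list 5 of 20 genes fell and 4 rose (median 0.02). Interferon response genes had 12 rises (26.7%, against 14.5% of all genes) and 1 fall among 45 (median 0.31). Their median mock level was 7.44, and of all genes with a mock level between 7 and 9, 30.1% were higher. IFIT1, an antiviral RNA-binding protein, went from 7.25 and 7.06 to 8.92. Of 34 nuclear receptors 6 fell and 8 rose (median 0.10), with PPARA, a receptor of fatty acid breakdown, at -1.35 and NR6A1 at 1.66. Of 34 voltage-gated channels 3 fell and 7 rose (median 0.22), with the potassium channel gene KCNC4 (1.99) after SCN2A. The other probe set of KCNC4 went down, to -0.46.

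The machinery that carries microRNA activity had shares of calls close to the 10.4% lower and 14.5% higher over all genes. The shares lay under those of genes of like level. Median mock levels of these lists were 10.5 and 10.4, and of all genes between 9 and 11, 20.4% were lower and 17.4% higher. Of 35 Argonaute, TNRC6 and small RNA processing genes 4 fell (11.4%) and 4 rose (median 0.05), and of 39 deadenylation, decapping and decay genes 4 fell and 5 rose (median -0.05). AGO2, the Argonaute that can cut its target, stood at 10.47 and 10.37 in mock cells and did not pass (-0.30, adjusted p = 0.176), and AGO1 at -0.32 (adjusted p = 0.137). These are not settled, since under a trended and robust prior both passed in limma (adjusted p = 0.0134 for AGO1 and 0.0227 for AGO2), and AGO1 also passed with the mean of its probe sets (-0.59, adjusted p = 0.0346). AGO4 went from 7.17 and 6.82 to 8.62, and TNRC6C, a partner that recruits the deadenylases, from 8.99 on both mock arrays to 9.86, a call lost with the mean of its probe sets (0.33, adjusted p = 0.121). TSN, a subunit of the nuclease that removes passenger strand fragments, went from 11.96 and 12.04 to 9.92, and CNOT9, a subunit of the CCR4-NOT deadenylase, from 10.33 and 10.37 to 8.35. Of 17 let-7 target and oncofetal genes 3 fell and 4 rose, and 8 were under background on all 3 arrays, with the chromatin factor gene ARID3A at 2.22.

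Most markers of epithelial identity were not called, and more were higher than lower. Of 38 epithelial and colon genes 9 rose (23.7%, against 14.5% of all genes) and 3 fell (7.89%, against 10.4%), with a median of 0.18. Their median mock level was 7.52. Of all genes with a mock level between 7 and 9, 30.1% were higher and 13.5% lower, so both shares lay under those of genes of like level. Among the calls of the list CLDN1 and TSPAN8 lay under background on all 3 arrays, and only 1 of 3 CLDN1 probe sets was below mock. CDH1, encoding E-cadherin, stood at a mean of 11.04 in mock cells and at 11.83 with the duplex (adjusted p = 0.0227), and PROM2, a prominin of epithelial protrusions, went from 6.46 and 6.17 to 10.13. NECTIN4, an adhesion protein of epithelia, went from 6.81 and 6.65 to 10.30. Of 21 genes of a mesenchymal shift 7 fell and 2 rose (median -0.13), with the intermediate filament gene VIM at -1.18 and the repressor gene SNAI2 at -0.96 lower and FN1 (1.22, or 0.46 and no call with the mean of its probe sets) and ACTA2 (2.23) higher.

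Of 34 measured markers of other cell types 4 rose and 1 fell (median -0.01), and 5 were above background in mock cells. Their summed level was 11.81 and 11.67 in log2 on the mock arrays and 12.22 with the duplex. For 5 fibroblast and muscle markers, of which COL3A1 and PDGFRB were under background on all 3 arrays, it was 9.38 and 9.18 against 10.68. ACTA2, smooth muscle actin, went from 7.21 and 7.14 to 9.40 and COL1A1 from 8.71 and 8.41 to 9.76. The part of such cells in any other result was not tested. Of 16 housekeeping genes 3 fell and 1 rose (median -0.04), with the tubulin gene TUBB at -1.21 and the actin gene ACTB at -1.01.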

How the data were processed

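Total RNA was amplified, labelled with biotin and hybridised to 1 array per sample, per the labels' protocols. The authors deposited 1 linear intensity per probe set, made with RMA per the submitters' processing notes, which give no version. RMA normalizes quantiles between arrays, so a shift of most genes in 1 direction would be removed. Median intensities were 44.3 and 42.6 (mock) and 46.3 (intact). From the deposited intensities, log2 values were computed, and no pseudocount was added.

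Probe sets were named through the platform annotation and RefSeq symbols (GRCh38.p14); 35184 had 1 gene, 374 several and 16819 none. No genome build is named for the values, so coordinates are given for the printed promoters only. Changes were fitted with limma 3.58.1 in R 4.3.3 over all 4 arrays with 3 group means (prior 2.89 degrees of freedom), checked on simulated data. Standard errors over genes were at least 0.12 (median 0.13).

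The members and all 54 lists were chosen with earlier results of these data known. Genes were named by rule: the 12 largest falls and rises among the brightest 20% of genes in mock cells, the 6 largest each way with at least 3 probe sets all moved 2-fold, the 6 largest rises with a mock mean above the median (6.62) and falls between it and the brightest 20%, up to 5 members of each list, fixed genes and 12 pairs. Others were chosen after their values were seen. Some items are not reported here. The alternatives are given with their effect in the closing section, and the one restricted to genes above array background was added after the data were seen.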

Additional observations from a re-analysis of the deposited data

Results flagged for a closer look

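The probe sets assigned to no gene or to several genes entered none of the comparisons of genes. Fitted over all probe sets, 1874 of 16617 such probe sets passed the limma threshold (11.3%), 830 lower and 1044 higher, and 1242 of the 1874 had a mock level above array background. Their changes ran from -3.22 to 4.61, and 420 were at least 2-fold below and 527 at least 2-fold above both mock arrays. In the same fit 20.1% of probe sets with 1 gene passed, and of the 576 probe sets named for viruses, which served as the control, 5 passed (0.868%), none of them 2-fold from both mock arrays. Which transcripts these unassigned probe sets measure was not examined.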

How the results depend on the processing

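The counts of 4937 genes called, 2064 lower and 2873 higher, rest on the variance model. With a trended and robust prior they were 7809, 3143 and 4666, and with intensities under 64 raised to 64 they were 1038, 276 and 762; for the floor, 216 of the 292 named genes kept their direction but missed the threshold. The causes of these differences were not tested. The other planned settings (a further quantile normalization, arrays centred on their medians, the dimmest 40% of genes left out, a pseudocount of 16, the mean of all probe sets, the brightest probe set by the mock arrays, the fit without the segmented array) and the added restriction to 11856 genes above background gave counts within 1.5 times of these. Centring each array on its median moved the median change from 0.02 to -0.07 and the lower share of calls from 41.8% to 50.4%, so list medians within about 0.1 of 0 have no settled sign. Without either mock array no test could be made, since no residual degree of freedom was left, and 1011 genes stood at least 2-fold below the remaining mock array and 1360 to 1498 above it. ALG13 turned to -0.62 with the brightest probe set by the mock arrays, and GRB2 to 0.19 and MAP3K20 to -0.31 with the mean of all probe sets. With that mean 15 named genes lost their call (FN1, GFAP, SS18, TNRC6C and YAP1 among them), as did HK1 with median centring, GFAP with the pseudocount and ERLIN2 with the brightest probe set by the mock arrays. The trended prior brought 8 named genes past the threshold, AGO1, AGO2, DNMT1, REST, ROCK1, SS18L1 and SUCLA2 among them. No paired analysis was possible because the groups compared share fewer than 2 replicate numbers. The number of arrays limits the precision, the intact array has no replicate, and levels under array background have no order.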

Other observations

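Transcripts that do not encode proteins were not on any list, and the genes named here were chosen after their values were seen. Among genes with a mock level between 6 and 9 the shares were 36.9% higher and 7.11% lower for 225 long noncoding RNA genes, while of 4112 protein-coding genes in that window 29.5% were higher, with a median change of 0.23 against 0.37. Between the mock arrays the median difference was -0.06 for both classes in that window. LINC00886 went from 7.09 and 7.04 to 8.94, LINC01372 from 6.41 and 6.68 to 8.59 and PRANCR from 6.68 and 6.55 to 8.47.

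Small nucleolar RNA genes, which guide the chemical modification of ribosomal RNA and are mostly cut from introns of host genes, lay below mock in 30 of 36 cases, but 18 of the 36 were under background on all 3 arrays and the sizes of their changes cannot be read. Of these 36 genes 13 were called lower and 0 higher, against 10.4% lower over all genes, and 5 of those calls were among the genes under background. SNORD14D went from 8.75 and 8.57 to 7.30. SNORA3A went from 6.81 and 6.76 to 5.75.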
